A study of Mus musculus with 3 samples.

Results

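The genes described here encode the initiation and elongation factors of cytosolic translation, together with the kinases, repressors and modifying enzymes that act on them. Members were chosen by gene symbol, as every listed gene whose name begins with Eif and a number, with Eef1 or with Eef2, plus Pabpc1 and Pabpc4, leaving out names marked as pseudogenes. This gave 70 of the 22976 genes in the count table. Not all are factors in the strict sense. The set also holds the 4 kinases that phosphorylate the alpha subunit of eIF2, the eIF4E-binding repressors, methyltransferases of eEF1A and eEF2, and Eef1e1, which encodes a scaffold protein of the tRNA synthetase complex.

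RNA was measured in NSC-34, a mouse line that arose by fusion of spinal cord cells of the embryo, enriched for motor neurons, with a neuroblastoma. The first group was 2 clones that had become resistant to PR20 without an engineered change, labelled as treated with 10 µM PR20 for 3 weeks. The second was 1 library of untreated wild-type NSC-34, the line from which the clones derive. PR20 is a synthetic peptide of repeated proline and arginine, modelled on a dipeptide repeat protein made from the C9orf72 expansion of amyotrophic lateral sclerosis. Each clone was 1 library, and the labels do not say whether PR20 was still present at harvest, so resistance, exposure and the choice of single clones cannot be told apart. In bulk RNA, fewer cells of a type and less RNA per cell cannot be told apart either.

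The libraries held 11389663 counts (clone 1), 11307034 counts (clone 2) and 11700755 counts (control). Markers of the labelled lineage were low throughout and lower in the clones. Of the 7 motor neuron markers, 6 were in the table, and their summed level was 5.78 and 4.85 CPM (reads of a gene scaled to the size of its library) in clones 1 and 2, against 23.2 CPM in the control. Chat, the acetylcholine-synthesizing enzyme, had 0 reads in both clones and 7 reads in the control. The 7 sympathoadrenal markers were all lower in the clones and summed to 597 and 522 CPM, against 1019.8 CPM in the control. Summed markers of fibroblasts were 84.4 and 107 CPM against 92.7 CPM, those of glia 5.07 and 5.39 CPM against 5.82 CPM, and those of macrophages and blood 1.60 and 1.71 CPM against 1.75 CPM. Whether these marker differences have a part in the results on translation factors was not tested.

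Translation of most messenger RNAs starts when the cap-binding complex eIF4F and the poly(A)-binding proteins recruit the small ribosomal subunit. That subunit carries eIF1, eIF1A, eIF3, eIF5 and the complex of eIF2, GTP and initiator tRNA, and it scans to the start codon. The large subunit then joins with the help of eIF5B, eEF1A delivers each further tRNA, and eEF2 moves the ribosome along. Cells lower initiation mainly by phosphorylating eIF2 or by letting the 4E-binding proteins hold eIF4E, and elongation by phosphorylating eEF2. Arginine-rich dipeptide repeats, PR among them, are known to bind ribosomes and to lower protein synthesis.

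Several of these genes carry a core E-box, the letters CACGTG, near their transcription start. The E-box is the recognition sequence of MYC and other basic helix-loop-helix factors, and many genes of ribosome and translation function are known to hold it. The windows examined ran from 250 bases before to 50 bases after each start in RefSeq (GRCm38.p6), and a gene counted if any of its windows held the motif. Because the motif is its own reverse complement, a match counts for both strands, and no other motif was searched. The stretches of 30 bases below show the motif in capitals, 5′ to 3′ on the gene's strand, for each gene with a match whose RNA was called higher in the clones.
Eef2, chr10:81176576-81176605, plus strand: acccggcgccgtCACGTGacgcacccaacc
Eif3a, chr19:60790654-60790683, minus strand: ccgcgagggaatCACGTGgttccttccttt
Eif3k, chr7:28981915-28981944, minus strand: ctggaaggaaatCACGTGgtagacaaaaaa
Eif4a1, chr11:69672595-69672624, minus strand: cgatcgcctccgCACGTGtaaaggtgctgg
Eif4g1, chr16:20672661-20672690, plus strand: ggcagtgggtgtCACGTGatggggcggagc
Eif4g1, chr16:20672730-20672759, plus strand: ctctgcgccggtCACGTGgggcgctggctg
Eif4h, chr5:134639488-134639517, minus strand: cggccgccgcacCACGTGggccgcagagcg
Eif5a, chr11:69920791-69920820, minus strand: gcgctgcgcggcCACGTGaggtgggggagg
Eif5a, chr11:69921443-69921472, minus strand: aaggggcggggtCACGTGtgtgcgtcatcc

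A window was matched for 52 of the tested members, and 13 of these (25%) held the motif. The share was 11.7% among all tested genes with a window and 8.09% among all 27025 genes with one. By RNA change, 7 of 14 members called higher, 0 of 9 called lower and 6 of 29 not called held it. Among all tested genes the shares were 12.9% of those higher, 11.1% of those lower and 11.4% of those not called. Genes differ in how many starts they have, with 1.57 windows per gene among the members called higher and 1.28 among all tested genes. Counted by window, the motif stood in 9 of 22 windows of the higher members, in 0 of 11 of the lower ones and in 9.80% of the windows of all tested genes. Only the letters were searched, and no binding was measured.

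The question the libraries address is how RNA differs between PR20-resistant clones and untreated cells. Of the 70 members, 66 had enough reads to be tested, and 33 of these were called by edgeR's quasi-likelihood test at an adjusted p under 0.05 over all 13705 tested genes. In the clones, 20 members were higher and 13 lower. That is 30.3% and 19.7% of the tested members, beside a background of 24.3% higher and 25.8% lower among all tested genes. The shares are near the background, so the counts alone do not set the members apart. The changes were small. The median absolute log2 fold change was 0.18 over the members and 0.33 over all tested genes, and 3 members (4.55%) were called with a fitted change of at least 1.5-fold, against 22.4% of all tested genes. Those 3, Eif1ax, Eif4e3 and Eef1akmt1, were all lower. The median log2 fold change was 0.10 over the members and 0.0021 over all tested genes. Translation factors are abundant, with a median control level of 145 CPM against 29.3 CPM for all tested genes. The sizes of change of the members and of all tested genes are therefore not a like comparison.

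Both clones lay on the same side of the control for all 33 called members. Log2 fold changes of the 20 higher members ran between 0.18 and 0.56, and those of the 13 lower members between -0.79 and -0.15. The clones themselves differed by less than 1.25-fold in most of these genes. Without a test, since each clone is 1 library, 1 of the 66 members differed by at least 1.25-fold between the clones, beside a background of 17.1% of the genes with a value. It was Eef2kmt, a methyltransferase of eEF2, with 16.4 CPM in clone 2, 12.9 CPM in clone 1 and 11.1 CPM in the control. Members also had more reads than tested genes in general, so this background is not a like comparison. For 12 of the 66 members the 95% counting interval of the log2 ratio between the clones excluded 0. No share over all genes is given for that count. In the authors' deposited table, made with DESeq2, 10 members were higher and 6 lower at an adjusted p under 0.05, beside backgrounds of 10.0% and 9.77%. All 16 were called in the same direction by edgeR.

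With 1 control library, the test takes its spread from the pair of clones alone. The labels name no repeat cultures of a clone or of the control, so each p reflects only how far these libraries differ, which may be technical. With a preset biological variation of 10% in place of the estimated one, 2 members were called higher and 5 lower, beside 10.5% and 15.9% of all tested genes. With 20% edgeR called 0 members in either direction, with 0 higher and 2 lower at an unadjusted p under 0.05, beside calls of 1.14% and 7.24% of all tested genes. Without the low-count filter edgeR called 0 members, while 23 were higher and 12 lower at an unadjusted p under 0.05, and it called 0.00% of all genes higher and 0.0174% lower.

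**Figure D1:**
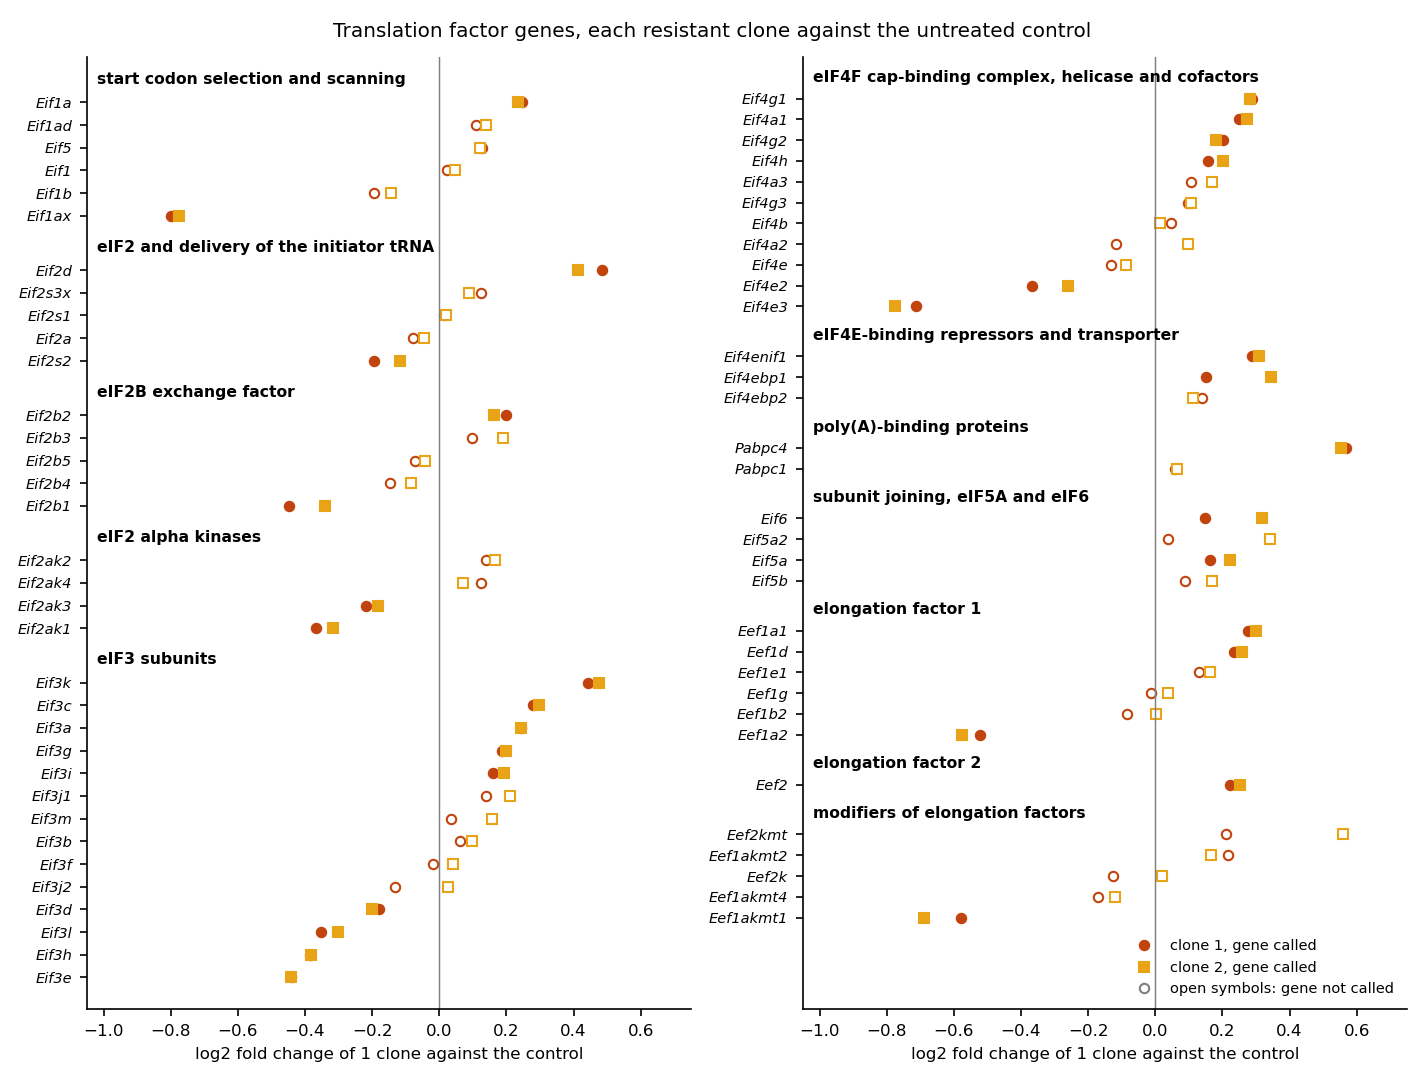
Log2 fold change of each clone against the control (x axis) for the 66 tested members, grouped by role (y axis). Circles are clone 1 and squares clone 2, each 1 library, filled where edgeR called the gene, and where 1 symbol shows the other lies beneath it. The clones lie close together for most genes, and Eif1ax and Eif4e3 lie farthest to the left.

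The factors of scanning and start codon selection changed most in a pair of genes that encode nearly the same protein. Eif1ax, on the X chromosome, and Eif1a, on chromosome 18, both encode eIF1A, which binds the decoding site of the small subunit. Eif1ax (ENSMUSG00000067194, X:159372178-159389928, plus strand, Gencode M21 on GRCm38) had 100.2 and 102 CPM in clones 1 and 2, against 174 CPM in the control. It had the lowest log2 fold change of all members, -0.79 ± 0.06 (SE), with an edgeR adjusted p of 2.2e-08. Eif1a had 112 and 111 CPM in the clones, against 94.2 CPM in the control, and was higher (log2 fold change 0.24 ± 0.06, edgeR adjusted p = 0.0055). DESeq2 did not call Eif1a. Of the reads of both genes, Eif1ax held 47.3% and 47.9% in the clones, against 64.9% in the control. The exact binomial 95% interval was 45.3 to 49.3% in clone 1, against 63.2 to 66.6% in the control. The pair was chosen for this share after its values were seen. Reads that match both genes may be missing or split, so the share is uncertain.

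Each gene of the pair moved in the direction of its chromosomal neighbours. The 24 other tested genes within 5 Mb of Eif1ax had a median log2 fold change of -1.32, and the 28 around Eif1a had 0.42. The other genes of this step, Eif1, Eif1b, Eif1ad and Eif5, were not called, with log2 fold changes between -0.17 and 0.12. Eif5 encodes the factor that triggers GTP hydrolysis by eIF2.

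Of the genes for eIF2 and related factors that deliver initiator tRNA, the beta subunit gene Eif2s2 was lower and Eif2d was higher. Eif2d encodes a factor that can deliver tRNA to the small subunit without eIF2 and acts in ribosome recycling. It had 46.6 and 44.3 CPM in the clones, against 33.3 CPM in the control (log2 fold change 0.45 ± 0.09, edgeR adjusted p = 0.00082). Both clones were above the control, but DESeq2 did not call it. Eif2s2 (log2 fold change -0.15) had an adjusted p of 0.032 by edgeR and 0.31 in the authors' deposited table. The alpha subunit gene Eif2s1, the gamma subunit gene Eif2s3x and Eif2a were not called. Eif2s3y, the Y-linked copy of the gamma subunit gene, had 1 read in each clone and 0 in the control, and was not tested.

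The exchange factor eIF2B reloads eIF2 with GTP and is the target of phosphorylated eIF2. Of its 5 subunit genes, 1 was higher, 1 lower and 3 were not called. Eif2b1, the alpha subunit gene, had 18.8 and 20.2 CPM in the clones, against 25.6 CPM in the control. It was lower by the edgeR test (log2 fold change -0.39 ± 0.12, adjusted p = 0.013) and was not called by DESeq2. Eif2b2, the beta subunit gene, was the 1 that was higher by edgeR (log2 fold change 0.18), with an adjusted p of 0.43 in the authors' deposited table.

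The 4 kinases of eIF2 respond to different stresses, and 2 of their genes were lower in the clones while 2 were not called. Eif2ak1 encodes HRI, the kinase of heme shortage and mitochondrial stress. It averaged 103 ± 2.4 CPM in the clones (SD, n = 2), with 102 and 105 CPM, against 131 CPM in the control. Its log2 fold change was -0.34 ± 0.06 with an edgeR adjusted p of 0.00027, and -0.35 with an adjusted p of 0.043 in the authors' deposited table, from DESeq2. Exons of Eif2ak1 overlap those of Aimp2 on the other strand over 8.59% of their length, and no source used here states whether the counting kept strands apart.

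Eif2ak3 encodes PERK, the kinase of endoplasmic reticulum stress. It had 66.7 and 68.3 CPM in the clones, against 77.5 CPM in the control, and was lower by edgeR (log2 fold change -0.20 ± 0.07, adjusted p = 0.029) but not by DESeq2. Eif2ak2, which encodes PKR, the kinase activated by double-stranded RNA, had 58.4 and 59.6 CPM in the clones, against 53.1 CPM in the control, and was not called. Eif2ak4 encodes GCN2, which senses uncharged tRNA and stalled ribosomes. Its levels of 42.3 and 40.7 CPM in the clones, against 38.7 CPM in the control, did not pass the test either (log2 fold change 0.10 ± 0.09).

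**Figure D2:**
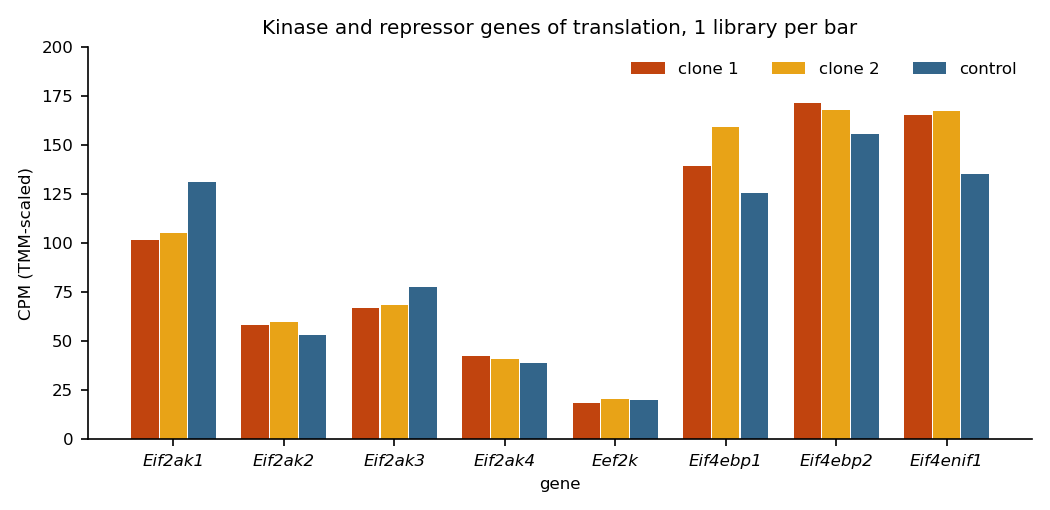
Levels in CPM (y axis, TMM-scaled, from 0) of 8 kinase and repressor genes (x axis) in clone 1, clone 2 and the control, 1 library per bar and no error bars. Eif2ak1 and Eif2ak3 stand lower in both clones, Eif4enif1 and Eif4ebp1 higher, and the bars of Eef2k lie close together. Those of Eif2ak2, Eif2ak4 and Eif4ebp2 also stand higher in both clones, but these genes were not called.

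eIF3 is the largest initiation factor, a complex of many subunits that holds the small subunit open and links it to eIF4F. Of its 14 genes, 5 were higher, 4 lower and 5 not called. With 24.3% of all tested genes higher and 25.8% lower, counts of this size over 14 genes do not set the complex apart. The sum over the 14 genes was 0.437% and 0.443% of all counts in the clones, against 0.444% in the control, without TMM scaling. In TMM-scaled CPM the sum was 4428 and 4494 in the clones, against 4317 in the control. The direction of this small difference thus depends on the scaling. The 4 lower genes were Eif3e, Eif3h, Eif3l and Eif3d, and all 4 lie on chromosome 15.

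Eif3e had the lowest p of the complex. The gene was first known as an integration site of mouse mammary tumour virus. Eif3e (ENSMUSG00000022336, 15:43250058-43282719, minus strand) had 201 CPM in each clone, against 273 CPM in the control (log2 fold change -0.44 ± 0.05, edgeR adjusted p = 4.3e-06). Eif3h, whose protein sits beside that of Eif3e in the complex, had 299 CPM in each clone, against 390.4 CPM in the control. For Eif3l the values were 261 and 269.9 CPM in the clones, against 333 CPM in the control. Eif3d, whose protein can itself bind the cap of some messenger RNAs, had 405 and 399.8 CPM in the clones, against 459 CPM in the control. Its adjusted p was 0.0048 by edgeR and 0.069 in the authors' deposited table, from DESeq2. The clones lay below the control for each of the 4. An antisense gene covers 43.3% of the exon length of Eif3d, so reads of these 2 genes may be mixed.

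Of the 5 higher subunit genes, Eif3k and Eif3c lie on chromosome 7. Eif3k had 174 and 178 CPM in the clones, against 128 CPM in the control (log2 fold change 0.46), and Eif3c had 927 and 939 CPM, against 764 CPM. Eif3a, the gene of the largest scaffold subunit, had 833 and 834 CPM in the clones, against 704 CPM in the control. Eif3g and Eif3i had log2 fold changes of 0.19 and 0.18, and the authors' deposited table called neither (adjusted p = 0.32 and 0.34). The eIF3 genes other than Eif3e were chosen for naming after their values were seen.

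Levels of different genes were compared per kilobase of merged exons, over 13 subunit genes, leaving out Eif3j2, a near copy of Eif3j1. The highest subunit gene exceeded the lowest, Eif3j1, by 39.3-fold in clone 1, 37.8-fold in clone 2 and 39.7-fold in the control. The highest was Eif3c in both clones, at 264 and 268 CPM per kb, and Eif3h in the control, at 242 CPM per kb. The SD of the log2 level per kb across the subunit genes was 1.33 and 1.31 in the clones, against 1.35 in the control. That spread rests mainly on the wide range between genes. Changes as small as those of the called subunit genes could hardly move it. Merged exons may be longer than the transcripts in use, which makes such levels approximate.

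**Figure D3:**
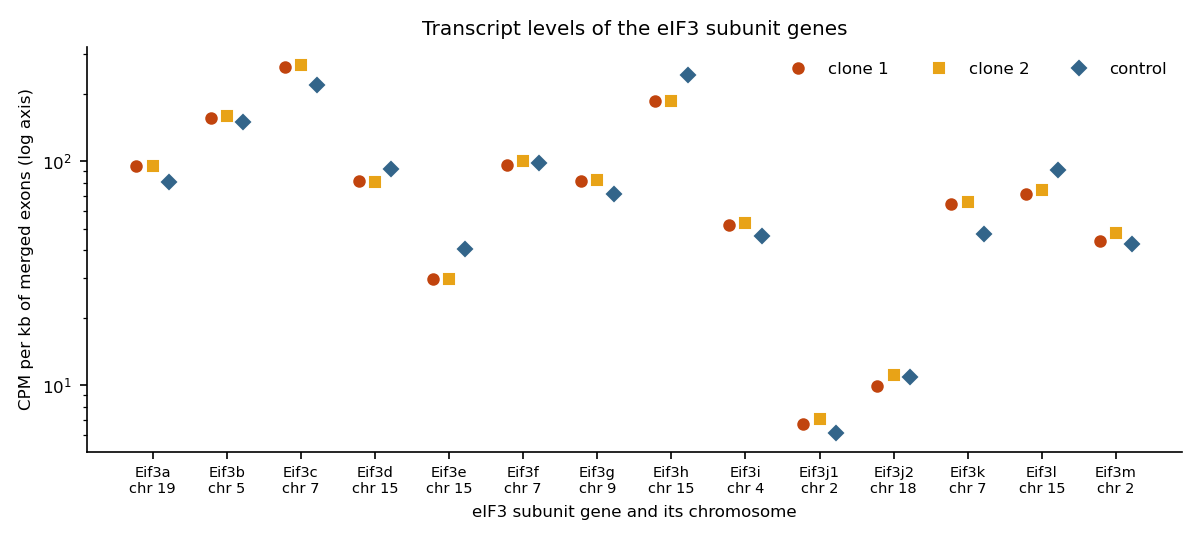
Level of each eIF3 subunit gene (x axis, with its chromosome) in CPM per kb of merged exons (y axis, log scale) in clone 1, clone 2 and the control, 1 library per point. The control point is the highest of the 3 for Eif3d, Eif3e, Eif3h and Eif3l on chromosome 15. It is the lowest for Eif3a, Eif3c, Eif3g, Eif3i and Eif3k, and also for Eif3b, Eif3j1 and Eif3m, which were not called.

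The chromosome of a gene went with its direction in several places. The other tested genes had a median log2 fold change of -0.28 on chromosome 15, -0.22 on the X chromosome, 0.26 on chromosome 7 and 0.42 on chromosome 18, while on every other chromosome that carries a tested member this median lay between -0.08 and 0.12. Of the 7 tested members on chromosome 15, 4 were lower and 1, Eef1d, was higher. Pabpc1 and Eif4b were the other two there and were not called. Eif3e had a log2 fold change of -0.44 beside a median of -0.60 over its 19 neighbours within 5 Mb. Pabpc1 had 0.06 beside a median of -0.55 over 44 neighbours, so not every member moved with its surroundings. Eif3k had 0.46 beside 0.43 over 171 neighbours. Without the members on these 4 chromosomes, 49 tested members remained, of which 15 were higher and 8 lower, with a median log2 fold change of 0.12. Among all tested genes, on all chromosomes, 24.3% were higher and 25.8% lower. No share without these 4 chromosomes, or on chromosome 15 alone, is given, so these counts have no like background. The part of chromosome content in these changes was not tested.

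**Figure D4:**
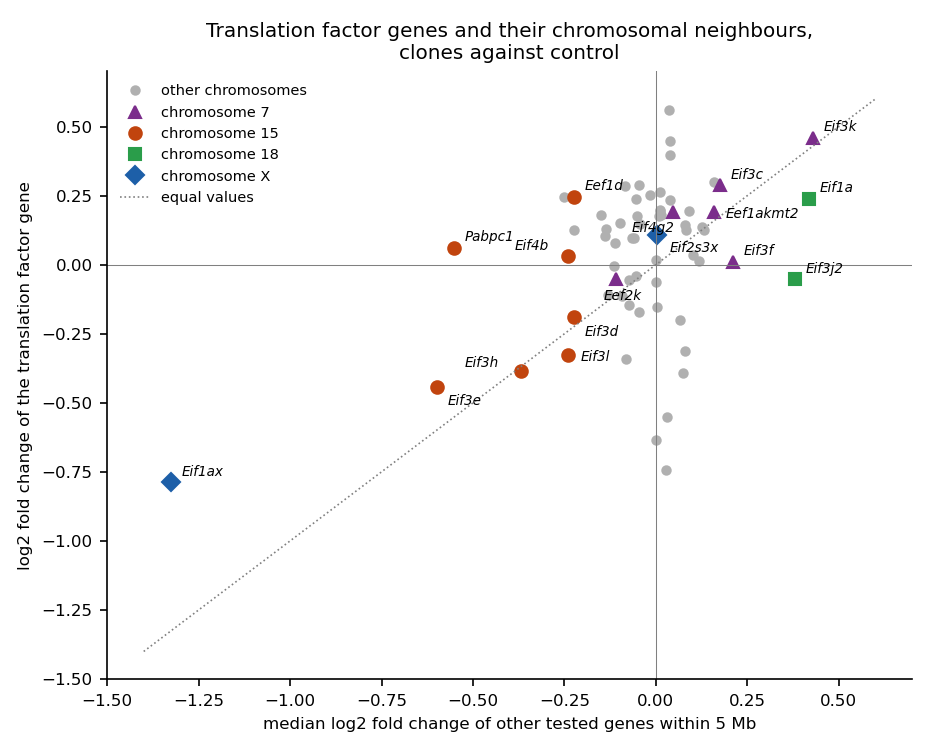
Log2 fold change of each tested member, clones against control (y axis), against the median log2 fold change of the other tested genes within 5 Mb (x axis). Members on chromosomes 7, 15, 18 and X are coloured and named, others are grey, and the dotted line marks equal values. Eif1ax lies far to the lower left, and Pabpc1 lies near 0 although its neighbours had a median of -0.55.

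Among the genes of the cap-binding complex and its helicase, Eif4g1, Eif4g2, Eif4a1 and Eif4h were higher, and Eif4e2 and Eif4e3 were lower. Of the 12 genes of this role, 4 were higher, 2 lower and 5 not called, beside 24.3% higher and 25.8% lower among all tested genes. Eif4e1b, a copy of Eif4e expressed in oocytes, had 1 and 0 reads in the clones and 4 in the control, and was not tested. Eif4g1, the scaffold on which eIF4F assembles, had 1116 and 1111 CPM in the clones, against 914 CPM in the control (log2 fold change 0.29 ± 0.05, edgeR adjusted p = 0.00013). The helicase gene Eif4a1, its cofactor gene Eif4h and Eif4g2, which encodes a scaffold that does not bind eIF4E, were also higher, with log2 fold changes of 0.26, 0.18 and 0.19. Eif4h was not called in the authors' deposited table, from DESeq2 (adjusted p = 0.11). The related scaffold gene Eif4g3, the helicase genes Eif4a2 and Eif4a3 and the cofactor gene Eif4b were not called, with log2 fold changes of 0.10, -0.01, 0.14 and 0.03. The cap-binding protein gene itself, Eif4e, was not called (log2 fold change -0.11), and its relatives Eif4e2 and Eif4e3 were lower. Eif4e2 encodes a cap-binding protein that represses translation, and had 88.1 and 94.9 CPM in the clones, against 114 CPM in the control. In the authors' deposited table it was not called (adjusted p = 0.097).

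Eif4e3 (ENSMUSG00000093661, 6:99625135-99666771, minus strand) encodes the third cap-binding protein of the family. It had 13.7 and 13.1 CPM in the clones, from 154 and 146 reads, against 22.4 CPM and 270 reads in the control. The log2 fold change was -0.74 ± 0.14 with an edgeR adjusted p of 0.00028, and DESeq2 did not call it. The 15 neighbours of Eif4e3 had a median log2 fold change of 0.03. Its share of the reads of Eif4e, Eif4e2 and Eif4e3 was 4.13% in clone 1 (exact binomial 95% interval 3.51 to 4.81%) and 3.80% in clone 2 (3.22 to 4.45%), against 5.78% in the control (5.13 to 6.49%). The intervals of the clones did not overlap that of the control, but they cover counting error only. Exons of Gm20696 on the same strand cover 14.8% of the exon length of Eif4e3, so part of its reads cannot be assigned with certainty.

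The repressors that hold eIF4E away from eIF4G were higher or not called. Eif4ebp1, whose protein is released from eIF4E when mTORC1 phosphorylates it, had 139 and 159 CPM in the clones, against 125 CPM in the control. Its mean in the clones was 149 ± 14 CPM (SD, n = 2), the log2 fold change 0.25 ± 0.07 and the edgeR adjusted p 0.0096, while DESeq2 did not call it. Clone 1 lay nearer to the control than to clone 2, and the log2 fold change of clone 1 alone was 0.15. Eif4ebp2, the form that prevails in brain, had 171 and 168 CPM in the clones, against 155 CPM in the control, and was not called. Eif4ebp3 had 2 and 1 reads in the clones and 1 in the control, and was not tested. Eif4enif1, whose protein carries eIF4E into the nucleus and to sites of messenger RNA decay, had 165 and 168 CPM in the clones, against 135 CPM in the control (log2 fold change 0.30 ± 0.06, edgeR adjusted p = 0.00052). Its adjusted p in the authors' deposited table was 0.065.

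Of the 2 cytoplasmic poly(A)-binding protein genes, the scarcer one was higher in the clones. Pabpc4 (ENSMUSG00000011257, 4:123262351-123298925, plus strand) encodes a form first described as induced in activated T cells. It had 80.8 and 79.8 CPM in the clones, against 54.4 CPM in the control. Its log2 fold change of 0.56 ± 0.07 was the highest among the members, with an edgeR adjusted p of 1.2e-05. Pabpc1, the main form, had 1481 and 1488 CPM in the clones, against 1423 CPM in the control, and was not called. Pabpc4 accordingly made up 5.17% and 5.09% of the reads of both genes in the clones, against 3.69% in the control. Its 90 neighbours had a median log2 fold change of 0.04.

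Among the factors of subunit joining and the early steps of elongation, Eif5a and Eif6 were higher. Eif5a encodes the hypusine-bearing factor that relieves ribosomes stalled at stretches such as polyproline. It had 894 and 933 CPM in the clones, against 799 CPM in the control (log2 fold change 0.19 ± 0.05, edgeR adjusted p = 0.0043). Eif6, whose protein keeps the large subunit from joining too early, had 105 and 118 CPM in the clones, against 94.5 CPM in the control. Its log2 fold change was 0.24 with both clones, 0.32 with clone 2 alone and 0.15 with clone 1 alone, and the authors' deposited table did not call it (adjusted p = 0.32). Eif5b and Eif5a2 were not called, and the share of Eif5a2 in the reads of Eif5a and Eif5a2 was 4.84% and 5.67% in the clones, against 5.25% in the control.

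The elongation factors make up most of the reads of the whole set, and their main genes were higher. Eef1a1, which encodes the factor that brings aminoacyl-tRNA to the ribosome, took 1.27% and 1.29% of all counts in the clones, against 1.09% in the control (log2 fold change 0.29). All 70 members together took 3.52% and 3.57%, against 3.27%. Without Eef1a1 and Eef2 the other 68 took 1.80% and 1.83% in the clones, against 1.78% in the control, so the rise in the total was mostly that of these 2 genes. These shares are not TMM-scaled. In TMM-scaled CPM the other 68 were higher too, with sums of 18264 and 18562 in the clones, against 17355 in the control.

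Eef2 encodes the factor that moves the ribosome along and carries the diphthamide residue that diphtheria toxin attacks. It had 4472 and 4569 CPM in the clones, against 3836 CPM in the control (log2 fold change 0.24 ± 0.05, edgeR adjusted p = 0.00076). Both clones lay above the control. Of the genes for the exchange factor that reloads eEF1A, Eef1d was higher (log2 fold change 0.25) beside a median of -0.22 over its 131 neighbours on chromosome 15, with an adjusted p of 0.059 in the authors' deposited table, while Eef1b2 and Eef1g were not called.

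Eef1a2 moved against Eef1a1. The gene (ENSMUSG00000016349, 2:181147653-181157014, minus strand) encodes the form of eEF1A that replaces eEF1A1 in mature neurons and muscle, and its loss in the mouse causes motor neuron degeneration. It had 87.8 and 84.6 CPM in the clones, against 126 CPM in the control (log2 fold change -0.55 ± 0.06, edgeR adjusted p = 3.1e-06). In reads, Eef1a2 held 0.677% of the pair in clone 1 (exact binomial 95% interval 0.636 to 0.721%) and 0.642% in clone 2 (0.602 to 0.684%), against 1.17% in the control (1.12 to 1.23%). The clones' intervals overlapped each other and not that of the control, but they cover counting error only. The median log2 fold change of its 60 neighbours was 0.03. Motor neuron markers were lower in the clones as well, and the part of that change in the level of Eef1a2 was not tested. Eef1a1 has many processed copies in the genome, so its own count is uncertain.

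**Figure D5:**
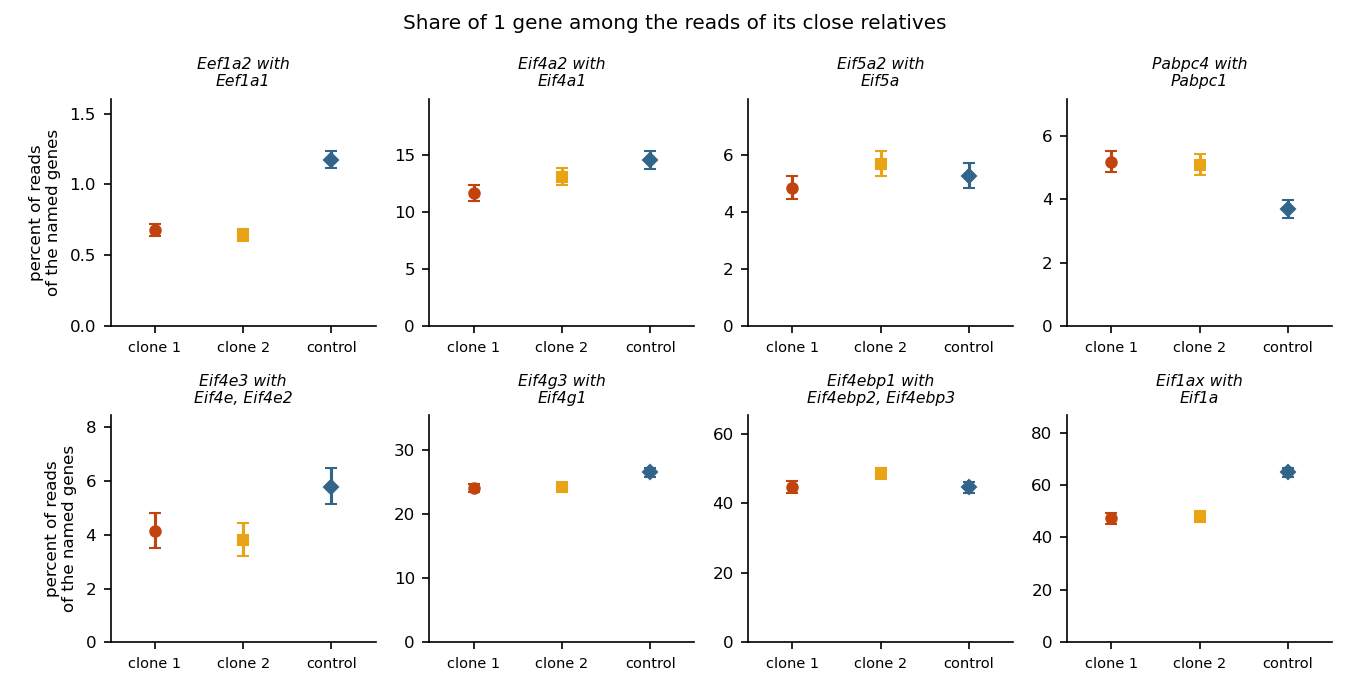
Percent of reads (y axis, from 0, scaled separately in each panel) that the first-named gene held among itself and its close relatives, in clone 1, clone 2 and the control (x axis). Bars are exact binomial 95% intervals, which cover counting error only. The intervals of both clones lie apart from that of the control for Eef1a2, Pabpc4, Eif4e3, Eif4g3 and Eif1ax. Shares were taken for these sets of genes only, so no background for such gaps is given.

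The modifying enzymes of the elongation factors were mostly not called. Eef1akmt1 encodes a methyltransferase of eEF1A, and it had 16.2 and 15.0 CPM in the clones, from 182 and 167 reads, against 24.2 CPM and 291 reads in the control. It was lower by edgeR (log2 fold change -0.63 ± 0.13, adjusted p = 0.00074) and not called by DESeq2, and its 96 neighbours had a median log2 fold change near 0. Eef2k, the kinase that stops elongation by phosphorylating eEF2, had 18.4 and 20.4 CPM in the clones, against 20.1 CPM in the control. The control lay between the clones, and the log2 fold change was -0.05 ± 0.13. Eef1akmt2, Eef1akmt4 and Eef2kmt were not called, and Eef1akmt3, with 4 and 1 reads in the clones and 9 in the control, was not tested.

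Other genes of the translation machinery were read from 7 lists of known members. Over these lists, 33 of 91 tested genes (36.3%) were higher and 12 (13.2%) lower, beside the 24.3% and 25.8% of all tested genes. Those last shares are the background for each list, and no list was tested as a set. The first list held 22 genes, those of the cytosolic aminoacyl-tRNA synthetases, which charge tRNAs with amino acids, and Aimp1 and Aimp2, which encode scaffold proteins of the synthetase complex. Of these, 11 were higher, Aimp2 among them, 1 was lower and 10 were not called, with a median log2 fold change of 0.14. The valine enzyme gene Vars had the lowest p, with 458 and 465 CPM in the clones, against 271 CPM in the control (log2 fold change 0.77). Lars, Nars and Cars were also higher, with log2 fold changes of 0.66, 0.51 and 0.57. Lars and Nars lie on chromosome 18 and Cars on chromosome 7, where the medians of the other tested genes were raised too. The lower gene was Tars, on chromosome 15 (log2 fold change -0.20), and like Aimp2 it is named after its values were seen.

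A list of 12 genes joined the eIF2 phosphatase subunits, regulators of the kinase GCN2 and transcriptional outputs of the eIF2 stress response. Of these, 7 were higher, 2 lower and 3 not called, beside 24.3% higher and 25.8% lower among all tested genes. The median log2 fold change was 0.26. The outputs did not move one way. Atf5, a transcription factor translated under eIF2 phosphorylation, had 314 and 315 CPM in the clones, against 153 CPM in the control (log2 fold change 1.04, edgeR adjusted p = 3.6e-10). Trib3, a pseudokinase gene induced by the response, Ppp1r15a, which encodes the stress-induced subunit of the eIF2 phosphatase, and Ddit3, which encodes CHOP, were higher with log2 fold changes of 0.63, 0.61 and 0.53. Atf5 and Ppp1r15a lie on chromosome 7, where the median of the other tested genes was raised. The 2 lower genes, named after their values were seen, were Atf3, a stress-induced transcription factor gene, and Asns, which encodes asparagine synthetase, with log2 fold changes of -0.65 and -0.26 and edgeR adjusted p of 0.00039 and 0.00076. Atf4, the main transcription factor of the response, was not called at the RNA level. It had 592 and 601 CPM in the clones, against 641 CPM in the control, and is named after its values were seen. The gene lies on chromosome 15, where the median of the other tested genes was lowered. Atf4 is controlled mainly in translation, which these libraries do not measure.

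In the mTORC1 pathway and its kinases, 6 of 14 genes were higher, 2 lower and 6 not called, beside 24.3% higher and 25.8% lower among all tested genes. Deptor, which encodes an inhibitor of mTOR, had 50.3 and 46.6 CPM in the clones, against 131 CPM in the control (log2 fold change -1.43 ± 0.07, edgeR adjusted p = 1.4e-10). It lies on chromosome 15. Mknk2, whose product phosphorylates eIF4E, had 158 and 164 CPM in the clones, against 97.7 CPM in the control (log2 fold change 0.72), and the genes of the mTORC1 subunit Rptor and of its inhibitor Tsc2 had log2 fold changes of 0.52 and 0.46.

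Of 14 genes for termination, recycling and rescue, 4 were higher, 1 lower and 9 not called, beside 24.3% higher and 25.8% lower among all tested genes. Zfp598, whose product detects collided ribosomes, had 196 and 194 CPM in the clones, against 119.9 CPM in the control (log2 fold change 0.70 ± 0.06, edgeR adjusted p = 8.3e-08). Etf1 and Gspt1, the genes of the release factors, and Gtpbp2, a rescue factor gene, had log2 fold changes of 0.34, 0.16 and 0.35. Etf1 lies on chromosome 18, where the median of the other tested genes was raised.

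Of 12 tested binding partners of the cap and the poly(A) tail, 4 were higher, 4 lower and 4 not called. Cyfip2 and Cyfip1 encode related proteins that link eIF4E to the fragile X protein and to actin control, and they moved apart. Cyfip2 had 4 and 5 reads in the clones, against 79 in the control, and was lower (log2 fold change -3.99 ± 0.41, edgeR adjusted p = 7.2e-07). Cyfip1 had 119 and 118 CPM in the clones, against 87.0 CPM in the control, and was higher (log2 fold change 0.45). It lies on chromosome 7, where the median of the other tested genes was raised. Paip2b, an inhibitor of poly(A)-binding protein, was lower (log2 fold change -0.49), and Gigyf1, a partner of the repressor made from Eif4e2, was higher (log2 fold change 0.41). Paip2 was also lower (log2 fold change -0.27), although it lies on chromosome 18, where the median of the other tested genes was raised. It is named after its values were seen.

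The mitochondrial translation factors changed little, with Gfm2 lower (log2 fold change -0.28) and the other 8 of 9 genes not called. In hypusine and diphthamide synthesis, which modify eIF5A and eEF2, Dph7 was higher, Dph6 was lower and the other 6 of 8 genes were not called.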

How the data were processed

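Libraries came from a stranded kit for messenger RNA, per the labels' protocols. Per the file headers, the authors counted reads per gene with STAR, and these deposited counts carry no normalization. The deposited RPM columns are the same counts scaled to the size of each library and served only to check totals. The log2 fold changes and p-values in the authors' deposited table came from DESeq2, per the file headers. The annotation was Gencode M16 (Ensembl 91) on GRCm38/mm10, per the file headers, and the STAR version 2.5.3, per the submitters' processing notes. Whether counting kept strands apart is not stated in these sources, so genes that overlap or lie antisense may share reads.

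All genes were fitted with edgeR 4.0.16 in R 4.3.3: TMM factors, filterByExpr on the groups, the quasi-likelihood F test (two-sided, legacy option off) and Benjamini-Hochberg adjustment at 0.05 over 13705 genes. Only the clones give a residual degree of freedom (1), which edgeR moderates across genes. SEs are the log2 fold change divided by the square root of F. The script was tested on simulated data with 50 changed genes at each fold. It recovered 44% of those changed 1.25-fold and 66% of those changed 1.5-fold, with 5 false calls. A gene not called may therefore still differ. The simulated control was given the spread fitted from the clones, and far fewer genes were changed than were called here. These rates may thus not carry over to the real libraries. CPM values are TMM-scaled, and a clone's own fold change used the dispersions of both clones. Alternatives were DESeq2 1.42.0, limma-voom (limma 3.58.1), RLE factors, other filters and fits, preset variation, and leaving out each clone. Gencode M21 on GRCm38 gave positions and exon lengths and matched 22933 of 22976 genes by ID, and promoter windows from RefSeq by symbol. Intervals are 95% and cover counting error only, since the reads carry no molecular identifiers and PCR copies of 1 molecule count separately, and the totals of 11307034 to 11700755 counts set the precision.

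The members, roles and lists were chosen with earlier results of these data known. Values in every library were given for members called at least 1.5-fold, the called member with the lowest p in each role, the kinases, the 4E-binding proteins and Eef2k, and, in a list, up to 4 called genes with the lowest p. Any other gene given with its values was chosen after they were seen.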

Additional observations from a re-analysis of the deposited data

Results flagged for a closer look

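Among the 7 rows left out as pseudogenes, 2 had more signal in both clones than in the control. Eif1-ps2 averaged 0.803 CPM in the clones, from 13 reads in clone 1 and 5 in clone 2, against 2 reads in the control, and did not pass the test (edgeR adjusted p = 0.056). Eif1-ps1 averaged 0.581 CPM in the clones, from 7 and 6 reads, against 5 reads in the control, and was too low to be tested. Both resemble Eif1, which was not called, and its reads may be mixed with theirs.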

How the results depend on the processing

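The members called were 20 higher and 13 lower, and the list genes 33 and 12. DESeq2 called 12 and 6 members and 20 and 5 list genes, beside 1578 and 1459 of all 13705 genes. Without the low-count filter edgeR called 0 and 0 of each (members at an unadjusted p under 0.05: 23 and 12), and 0 higher and 4 lower of all 22976 genes. With the legacy fit added, chosen after seeing the data, it again called 0 and 0 (unadjusted: 21 and 12). A preset variation of 10% gave 2 and 5 members and 15 and 6 list genes, and 20% gave 0 and 0 members (unadjusted: 0 and 2) and 0 and 2 list genes. RLE factors, a mean CPM of at least 1, legacy, robust and limma-voom fits gave 20 to 22 higher and 13 to 14 lower members. The cause of the losses was not tested. Of 16 called members, those named by rule and Eif1a, which was chosen after its values were seen, DESeq2 ended the call of 7, the missing filter of 16 and preset variation of 10 and 16, and none changed direction in any setting run. The members' median log2 fold change was 0.0927 to 0.109 with a clone left out, which leaves 1 library a group and no test, and 0.12 without chromosomes 7, 15, 18 and X, also chosen after seeing the data. No paired analysis was possible because there was 1 control, whose number came only from accession order. The 4 members with at most 9 reads in any library could not be tested.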
